A study of Homo sapiens with 2 samples.

Results

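The HOX cluster genes are the 39 protein-coding genes whose GENCODE symbol is HOXA, HOXB, HOXC or HOXD followed by a number, out of 19881 protein-coding genes with a canonical transcript on GRCh37 (hg19). There were 11 in the HOXA cluster, 10 in HOXB, 9 in HOXC and 9 in HOXD. With 20 kb added on each side, the clusters span chr7:27112612-27259710, chr17:46585888-46826112, chr12:54312615-54469814 and chr2:176937449-177075635, which together make 683 kb. These regions held 67 of the 173304 peaks of the TRPS1-WT list and 126 of the 325573 peaks of the TRPS1-MT list on the standard chromosomes.

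The data are Flag CUT&Tag peak lists from HCT116, a human colorectal carcinoma cell line, with 1 library per condition. TRPS1-WT cells carried a lentiviral Flag-tagged TRPS1 of wild-type sequence and TRPS1-MT cells the same construct with R544Q, and both were puromycin-selected populations on a background that keeps the TRPS1 genes of the line. CUT&Tag tethers a transposase to an antibody, here against the Flag tag of the introduced protein, so that adapters enter the DNA around it. No control library is given in the sources used here, the empty-vector cells of the study were not analysed here, and the label HCT116 could not be checked with marker genes, since peak lists hold no expression. With 1 library per condition no difference below has a replicate check, and every interval covers counting error only.

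HOX genes encode homeodomain transcription factors that assign position along the body axis, and their order on the chromosome follows their order of expression along that axis. Polycomb proteins keep the clusters silent where they are not used and Trithorax proteins keep them active, and in the adult colon the clusters retain part of their positional pattern. HOX proteins bind DNA together with the TALE homeodomain cofactors PBX, MEIS and PKNOX. TRPS1 is a GATA-type zinc finger protein best known as a transcriptional repressor.

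The tags at each summit, which are the reads piled up there, were recovered from the fold and −log10 p of each peak under the Poisson model of MACS2, together with the local background expected at that place. The lowest background the caller allowed, the genome-wide floor, was 1.1 tags in TRPS1-WT and 1.77 tags in TRPS1-MT. The median peak of the genome had 14 tags in TRPS1-WT and 17 in TRPS1-MT. Tags were not scaled between the libraries, and the TRPS1-MT list was 1.88 times as long, so levels are compared across conditions only beside the same quantity over the whole genome.

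The 3 sequences printed here are the bases shared by a TRPS1-WT and a TRPS1-MT peak at sites that the results below turn on, read from GRCh37 on the plus strand without annotated UTR bases. They are the site in HOXA9 at chr7:27208532-27208731, the HOXB9 promoter at chr17:46703939-46704138, and a site between HOXB8 and HOXB9 at chr17:46696064-46696184. Capitals mark matches, on either strand, to a GATA motif (AGATAA or AGATAG or TGATAA or TGATAG), an SP-KLF motif (GGGCGG) or the CTCF motif.
HOXA9: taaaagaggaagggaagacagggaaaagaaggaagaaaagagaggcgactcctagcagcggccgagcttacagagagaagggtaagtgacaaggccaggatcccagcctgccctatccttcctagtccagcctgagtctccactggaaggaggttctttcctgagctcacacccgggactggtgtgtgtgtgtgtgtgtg
HOXB9: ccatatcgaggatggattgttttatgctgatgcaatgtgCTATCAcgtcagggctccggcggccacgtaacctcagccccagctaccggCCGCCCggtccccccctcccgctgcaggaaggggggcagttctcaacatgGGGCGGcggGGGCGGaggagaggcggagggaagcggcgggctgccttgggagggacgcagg
HOXB8 to HOXB9: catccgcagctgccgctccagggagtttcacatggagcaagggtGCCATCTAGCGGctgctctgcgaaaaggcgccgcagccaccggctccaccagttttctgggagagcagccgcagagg
The HOXB9 bases hold 1 GATA match and 3 SP-KLF matches, and the last site 1 CTCF match. The HOXA9 bases hold no match to any of the 7 motifs searched, and a GATA match outside these bases lay within 100 bp of the summit of the peak in each list.

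The first question was which HOX genes carried a Flag-TRPS1 peak at their promoter, taken as 2 kb before to 1 kb after any annotated transcription start site (TSS) with the midpoint of the peak inside. A promoter peak was present at 22 of 39 HOX genes in TRPS1-WT, which is 56.4% (95% Wilson interval 41.0 to 70.7), beside 68.2% of all protein-coding genes. In TRPS1-MT it was 25 of 39, or 64.1% (48.4 to 77.3), beside 77.2%. A peak in both lists was found at 17 HOX genes, or 43.6% beside 63.3%, a TRPS1-WT peak alone at 5, or 12.8% beside 4.90%, a TRPS1-MT peak alone at 8, or 20.5% beside 13.9%, and no peak at 9, or 23.1% beside 17.9%. The HOX shares were thus below those of all genes in each list, with the genome's share inside the interval for each list taken alone and above the interval (29.3 to 59.0) for the share with peaks in both. These counts depended on the weaker peaks. With the 173304 strongest peaks of each list, 17 HOX genes had a TRPS1-MT peak, or 43.6% beside 68.0%, which is fewer than the 22 of TRPS1-WT. With −log10 p of at least 10, 17 had a TRPS1-WT peak, or 43.6% beside 61.0%, and 18 a TRPS1-MT peak, or 46.2% beside 69.4%. For 17 of 39 genes the interval is again 29.3 to 59.0, below the genome's share in both settings.

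Many HOX promoters are rich in CpG, and across the genome such promoters more often had a peak. Of the 39 HOX genes 27 had a CpG-rich promoter, or 69.2% beside 56.6% of all protein-coding genes. Such a promoter was defined as over 55% GC and a CpG observed-to-expected ratio over 0.65 within 500 bp of the canonical TSS. Among these 27, a promoter peak was present at 14 in TRPS1-WT, or 51.9% beside 81.3% of the 11255 CpG-rich genes, at 17 in TRPS1-MT, or 63.0% beside 88.0%, and at 11 in both lists, or 40.7% beside 77.5%. The number of annotated TSSs moved with the share as well, with a median of 2 per HOX gene and 5 per protein-coding gene. Among genes with up to 2 TSSs, 11 of 22 HOX genes had a TRPS1-WT peak, or 50% beside 39%, and 13 had a TRPS1-MT peak, or 59.1% beside 49.0%. Among genes with more TSSs, 11 of 17 had a TRPS1-WT peak, or 64.7% beside 78.3%, and 12 a TRPS1-MT peak, or 70.6% beside 86.9%. By these shares the order of HOX genes and all genes turned with the number of TSSs and did not turn within CpG-rich promoters. No interval was computed for the groups by number of TSSs, so the turn is not set apart from counting error. With the canonical TSS alone, 13 HOX genes had a TRPS1-WT peak, or 33.3% beside 56.2%, and 18 a TRPS1-MT peak, or 46.2% beside 64.5%.

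A peak in both lists was less often the same peak at HOX genes than at all protein-coding genes. Promoter peaks that overlapped between the lists by at least 1 bp were found at 7 of 39 HOX genes, or 17.9% (9.0 to 32.7), beside 50.7% of all protein-coding genes, and at 4 of the 27 CpG-rich HOX genes, or 14.8% beside 63.4%. The 7 genes were HOXA3, HOXA6, HOXA9, HOXB3, HOXB6, HOXB9 and HOXC13, and HOXB3 and HOXB6 shared their peaks. Where any overlap of a peak with the promoter counted, in place of its midpoint, 8 HOX genes had overlapping peaks, or 20.5% beside 51.8%. Of the 17 HOX genes with a peak in both lists, 41.2% (21.6 to 64.0) had overlapping peaks, beside 80.1% of the 12587 such genes. Peak strength moved with this share. Where the weaker of the 2 strongest peaks had at least 20 tags, 7 of 10 HOX genes had overlapping peaks, or 70.0% (39.7 to 89.2) beside 92.6%, and where it had fewer, 0 of 7 did, beside 38.6%. The 0 of 7 has an upper Wilson limit of 35.4%.

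**Figure D1:**
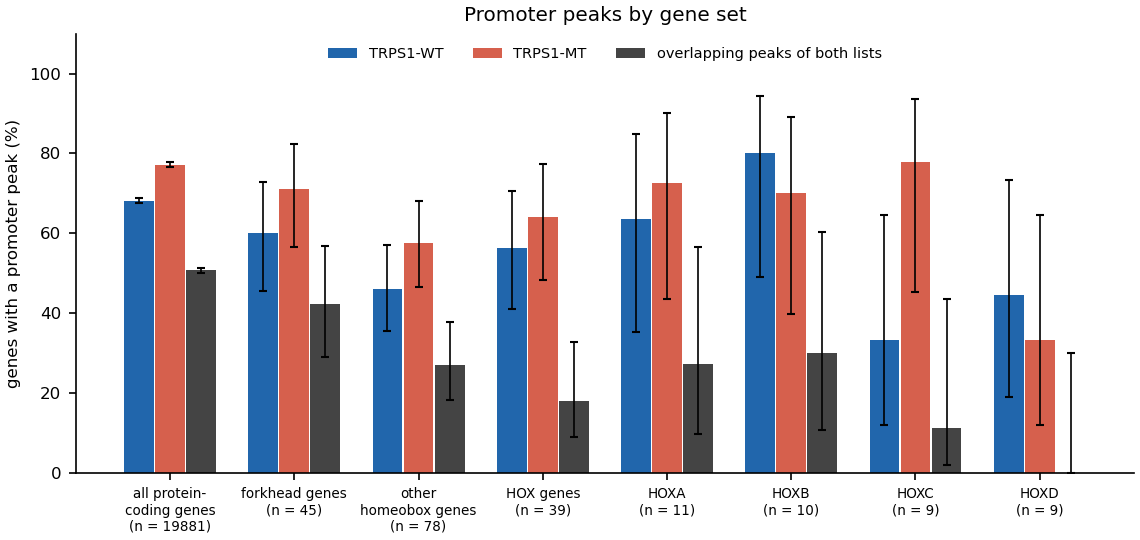
Share of genes with a promoter peak (y axis, percent) in each gene set (x axis, number of genes in brackets) in TRPS1-WT (blue), in TRPS1-MT (red) and with overlapping peaks of both lists (grey), with 95% Wilson intervals. The grey bar stands at 17.9% for the 39 HOX genes and at 50.7% for all protein-coding genes, and HOXD has none.

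The HOX promoter peaks with the most tags were those of HOXB3 and HOXB6, HOXC13 and HOXA3 in TRPS1-WT, and those of HOXB3 and HOXB6, HOXA9 and HOXA3 in TRPS1-MT. Where a gene had several promoter peaks, the strongest is the one with the highest −log10 p. Over the HOX genes with a promoter peak, the strongest peak had a median of 19 tags in TRPS1-WT (range 9 to 123), beside 38 over all genes with one, and of 35 tags in TRPS1-MT (range 11 to 185), beside 47. Only 6 of the 22 genes in TRPS1-WT and 8 of the 25 in TRPS1-MT lay above the median of all genes. HOX promoter peaks were thus mostly weaker than the typical promoter peak. The 22 TRPS1-WT genes rested on 20 distinct strongest peaks and the 25 TRPS1-MT genes on 24, since HOXB3 and HOXB6 shared a peak in both lists and HOXD10 and HOXD11 a weak one of 13 tags in TRPS1-WT.

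HOXB3 and HOXB6, which have annotated TSSs at the same place, shared the HOX peak with the most tags in each list. In TRPS1-WT it lay at chr17:46682063-46682518 in a UTR exon with 123 tags (exact Poisson interval 102 to 147) over a local background of 14.3. In TRPS1-MT it lay at chr17:46682305-46682960 with 185 tags (159 to 214) over a background of 31.6. The peaks overlapped by 214 bp with summits 349 bp apart. A second peak at a lower coordinate, at chr17:46681398-46681950 in TRPS1-WT and chr17:46680802-46681969 in TRPS1-MT, had 97 and 164 tags, and one more in an intron of HOXB6 and of the antisense gene HOXB-AS3 had 72 and 113 tags. All 3 sites were found in both lists and had more tags in TRPS1-MT, with ratios of 1.5, 1.69 and 1.57, while their folds over local background were lower there, at 5.71 against 8.11, 5.31 against 6.5 and 3.68 against 5.00.

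HOXA9, a posterior-group factor known for its part in blood stem cells and leukaemia, had the strongest peak of its cluster in TRPS1-MT. The TRPS1-MT peak at chr7:27208150-27208805 had 170 tags (145 to 198) and overlapped 2 TRPS1-WT peaks, one at chr7:27208440-27208825 with 61 tags (46.7 to 78.4) and one at chr7:27208045-27208267 with 48. The place is an alternative HOXA9 start beside the antisense gene HOXA10-AS, and the canonical HOXA9 TSS had no promoter peak in either list. The ratios of 2.79 and 3.54 were the highest of all pairs in the HOX clusters, and 90.5% and 95.4% of all overlapping pairs of the genome lay at or below them. HOXA3, an anterior-group gene of the pharyngeal region, had its strongest peak at an inner start beside HOXA-AS2, with 75 tags (59.0 to 94.0) in TRPS1-WT and 119 (98.6 to 142) in TRPS1-MT. HOXA6 had 2 promoter peaks in TRPS1-WT and 5 in TRPS1-MT. Of those that overlapped between the lists, one had 37 tags (26.1 to 51.0) in TRPS1-WT and 35 in TRPS1-MT, and one had 32 and 54 (40.6 to 70.5). The others in TRPS1-MT had 28, 41 and 25 tags. HOXA9 thus stood apart from HOXA3 and HOXA6 in TRPS1-MT tags. It did not in TRPS1-MT fold over local background, which was 9.82 at HOXA9, 12.3 at HOXA3 and 6.62 at HOXA6. Between the lists, however, the HOXA9 fold was higher in TRPS1-MT, with ratios of 1.42 and 1.80 to the 2 TRPS1-WT peaks. The fold ratio was 1.02 at HOXA3, 0.582 and 1.02 at HOXA6, and 0.920 at the median of all pairs.

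HOXB9, a gene of the posterior group, had 63 tags (48.4 to 80.6) in TRPS1-WT and 71 (55.5 to 89.6) in TRPS1-MT at overlapping peaks upstream of its single TSS. HOXC13, which acts in hair and nail formation, ran the other way: its promoter peak had 77 tags (60.8 to 96.2) in TRPS1-WT and 22 (13.8 to 33.3) in TRPS1-MT. Its ratio of 0.286 (exact interval 0.169 to 0.464) was the lowest of the HOX pairs, and 0.611% of all overlapping pairs had a ratio as low. HOXC13 was thus the HOX gene whose TRPS1-WT interval lay wholly above its TRPS1-MT interval, in a list where the typical shared peak had more tags.

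Of the other 8 HOXC genes, HOXC4 and HOXC6 had a promoter peak in both lists, 4 in TRPS1-MT alone and 2 in neither. HOXC6 had 11 tags (5.49 to 19.7) in TRPS1-WT at its TSS and 66 (51.0 to 84.0) in TRPS1-MT at a different peak, at −1392 bp from the same TSS and inside an exon of HOXC10. HOXC4 had 28 tags (18.6 to 40.5) in TRPS1-WT and 42 (30.3 to 56.8) in TRPS1-MT, also at different peaks. This TRPS1-MT peak did overlap another TRPS1-WT peak, of 33 tags. The midpoint of the latter lay 1056 bp after the HOXC4 TSS, just past the end of the promoter. Annotated HOXA3, HOXB3, HOXB7, HOXC4 and HOXC6 transcripts reach over neighbouring genes, so a promoter peak of one can lie inside another. Across the cluster, a promoter peak was present at 3 of 9 genes in TRPS1-WT, or 33.3% (12.1 to 64.6) beside 68.2% of all protein-coding genes. In TRPS1-MT it was 7 of 9, or 77.8% (45.3 to 93.7) beside 77.2%. These intervals overlapped, so HOXC could not be named as the cluster where the lists differed most. The HOXD genes were the weakest. Their strongest promoter peaks were HOXD3 with 18 tags (10.7 to 28.4) in TRPS1-WT and HOXD11 with 27 (17.8 to 39.3) in TRPS1-MT, and none of the 9 had overlapping promoter peaks.

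**Figure D2:**
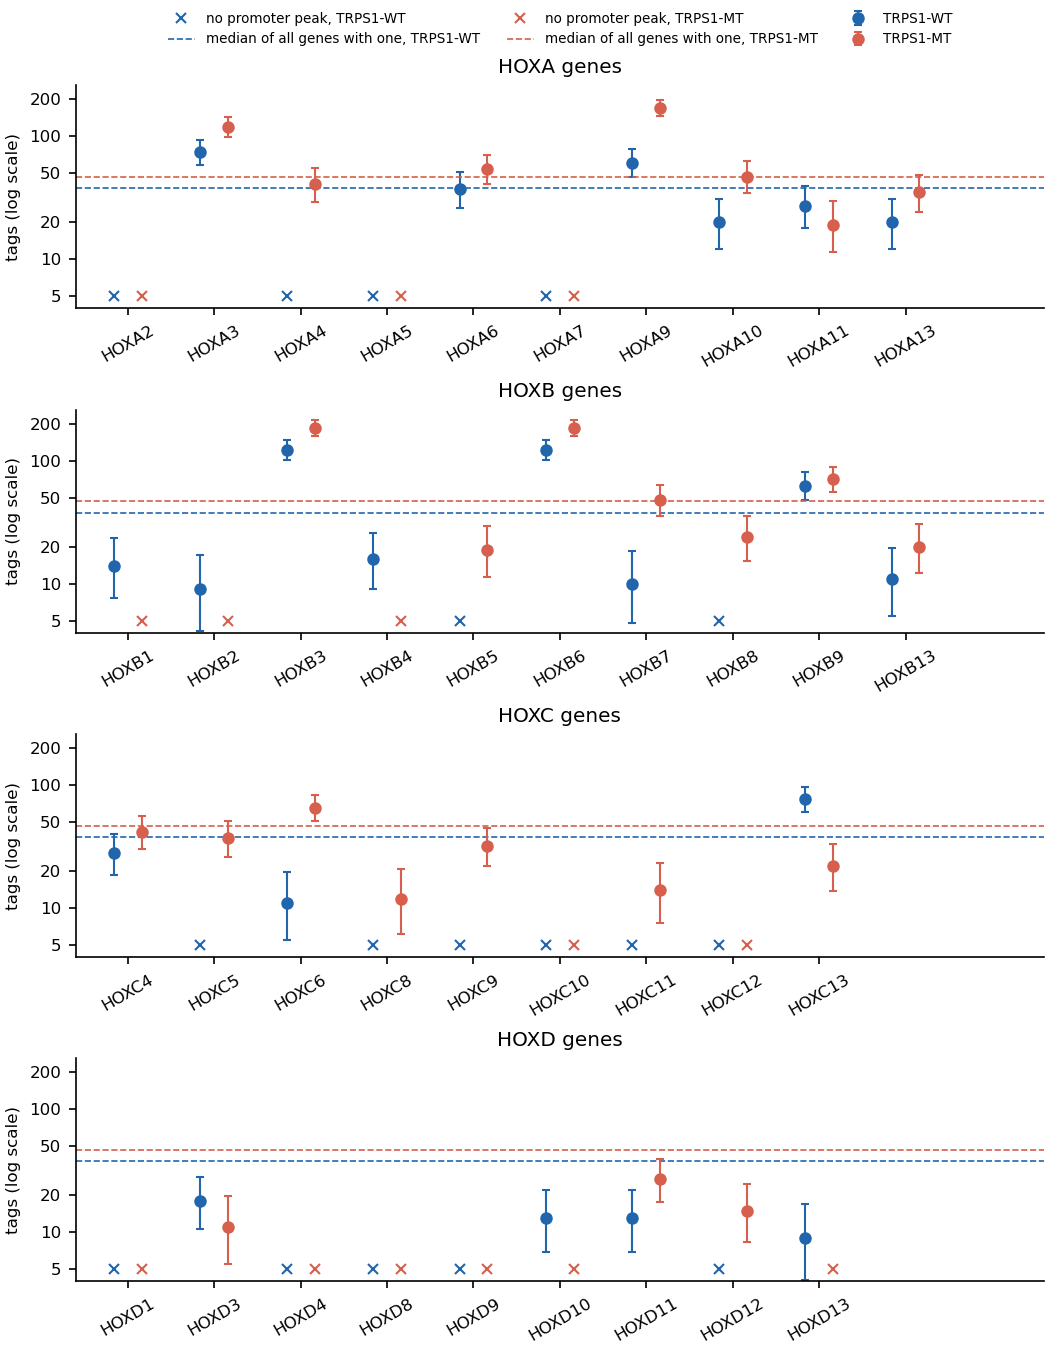
Tags at the summit of the strongest promoter peak (y axis, log scale) of the HOX genes shown (x axis, by cluster) in TRPS1-WT (blue) and TRPS1-MT (red), with exact 95% Poisson intervals; crosses mark genes without a promoter peak, and dashed lines the medians of 38 and 47 tags over all genes with one. HOXB3 and HOXB6 share 1 peak in each list, HOXA9 is highest in its cluster in TRPS1-MT, and HOXC13 is the gene whose TRPS1-WT interval lies wholly above the other.

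The remaining genes with peaks in both lists had lower values. HOXA10, a regulator of uterine and blood development, had 20 tags in TRPS1-WT and 47 in TRPS1-MT, HOXA11 had 27 and 19, and HOXA13, the most posterior gene and one used in hindgut and digits, had 20 and 35. HOXB7 had 10 and 48, and HOXB13, a marker of the posterior gut and prostate, 11 and 20. HOXD11 had 13 and 27, and HOXD3 had 18 and 11. Of these, the intervals did not overlap for HOXA10 (12.2 to 30.9 against 34.5 to 62.5) and HOXB7 (4.80 to 18.4 against 35.4 to 63.6), and in neither did the peaks of the lists overlap. The share of all protein-coding genes with intervals apart was not counted, and tags were not scaled. The gaps at HOXA10 and HOXB7 are therefore not read as particular to these genes.

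A promoter peak in TRPS1-WT alone was found at HOXB1, HOXB2, HOXB4, HOXD10 and HOXD13, and all 5 were weak. HOXB1, active in hindbrain patterning, had 14 tags, HOXB2 9, HOXB4, known for expanding blood stem cells, 16, HOXD10 13 and HOXD13, a digit gene, 9. The HOXD10 peak was also the HOXD11 peak, and it lay at −35 bp from a HOXD11 TSS. In TRPS1-MT the nearest peak to the canonical TSS was 1363 bp away at HOXB1, with 28 tags just outside the promoter, and between 4234 and 5218 bp away at the other 4.

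A promoter peak in TRPS1-MT alone was found at HOXA4, HOXB5, HOXB8, HOXC5, HOXC8, HOXC9, HOXC11 and HOXD12. HOXA4 had 41 tags (29.4 to 55.6), HOXC5 37 (26.1 to 51.0) and HOXC9 32 (21.9 to 45.2), and these 3 were the strongest. HOXB8 had 24 tags, HOXB5 19, HOXD12 15, HOXC11 14 at a place that is also the promoter of the non-coding RNA HOTAIR, and HOXC8 12. Of the 8, 4 thus lay in HOXC. The nearest TRPS1-WT peak to the canonical TSS was 1176 bp away at HOXC9 with 11 tags, 1864 bp at HOXD12 with 28 tags, between 3410 and 7481 bp at HOXA4, HOXB5, HOXB8, HOXC5 and HOXC8, and 17531 bp at HOXC11. The HOXD12 call rested on the edge of the promoter. The midpoint of its 28-tag TRPS1-WT peak lay at −2001 bp, and the peak counted where any overlap with the promoter was enough.

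The 9 genes without a promoter peak in either list were HOXA2, HOXA5, HOXA7, HOXC10, HOXC12, HOXD1, HOXD4, HOXD8 and HOXD9. No HOXB gene was among them, and 4 of the 9 HOXD genes were. The nearest TRPS1-WT peak to their canonical TSS lay between 3542 bp away, at HOXD9 with 28 tags, and 12538 bp away, at HOXD1. The nearest TRPS1-MT peak lay between 2592 bp away, at HOXD8 with 23 tags, and 9036 bp away, at HOXD1. HOXA5 and HOXA7, which lie on either side of the HOXA6 peaks, had peaks of 37 and 25 tags in TRPS1-WT at 5041 and 4570 bp. The floor of detection is set by the list, since the weakest peak of the HOX regions had 9 tags in TRPS1-WT and 10 in TRPS1-MT, so lower signal would not be listed.

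By position along the axis, the counts showed no common gradient. Among the 8 anterior genes, of paralogue groups 1 to 3, 6 had a TRPS1-WT peak and 4 a TRPS1-MT peak. Among the 15 central genes, of groups 4 to 8, 6 had a TRPS1-WT peak and 10 a TRPS1-MT peak. Among the 16 posterior genes, of groups 9 to 13, 10 had a TRPS1-WT peak and 11 a TRPS1-MT peak. Of the 8 genes with a TRPS1-MT peak alone, 5 were central. The central share was 40% (19.8 to 64.3) in TRPS1-WT and 66.7% (41.7 to 84.8) in TRPS1-MT. Of all protein-coding genes it was 68.2% and 77.2%. The anterior share ran the other way, at 75% (40.9 to 92.9) and 50% (21.5 to 78.5). The posterior share was 62.5% (38.6 to 81.5) and 68.8% (44.4 to 85.8). The intervals of the lists overlapped in each group, so no group could be named as the one where they differed most.

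The second question was how peaks filled the clusters as a whole. In TRPS1-WT the 4 clusters held 9.81 peaks per 100 kb (7.61 to 12.5), beside 5.6 over the genome, a ratio of 1.75 (1.36 to 2.23). In TRPS1-MT they held 18.5 per 100 kb (15.4 to 22) beside 10.5, also a ratio of 1.75 (1.46 to 2.09). The interval of the ratio lay above 1 for HOXA and HOXB in both lists and for HOXC in TRPS1-MT. HOXA held 18 and 30 peaks, with ratios of 2.19 (1.30 to 3.45) in TRPS1-WT and 1.94 (1.31 to 2.77) in TRPS1-MT, and HOXB 29 and 56, with ratios of 2.16 (1.44 to 3.10) and 2.22 (1.67 to 2.88). HOXC held 11 and 27 peaks, with ratios of 1.25 (0.624 to 2.24) and 1.63 (1.08 to 2.38). HOXD held 9 and 13, with ratios of 1.16 (0.532 to 2.21) and 0.895 (0.476 to 1.53). HOXD was thus at the density of the genome within counting error in both lists, and HOXC in TRPS1-WT.

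The genome average hides wide variation between places, so the same lengths were counted along the whole genome. Of the windows as long as the HOXB region, 4.31% held as many TRPS1-WT peaks and 0.154% as many TRPS1-MT peaks. For HOXA the shares were 6.12% and 4.11%, for HOXC 41.7% and 15.4%, and for HOXD 46.9% and 67.0%. The HOXB region in TRPS1-MT was thus the one nearest the top of the genome's windows.

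**Figure D3:**
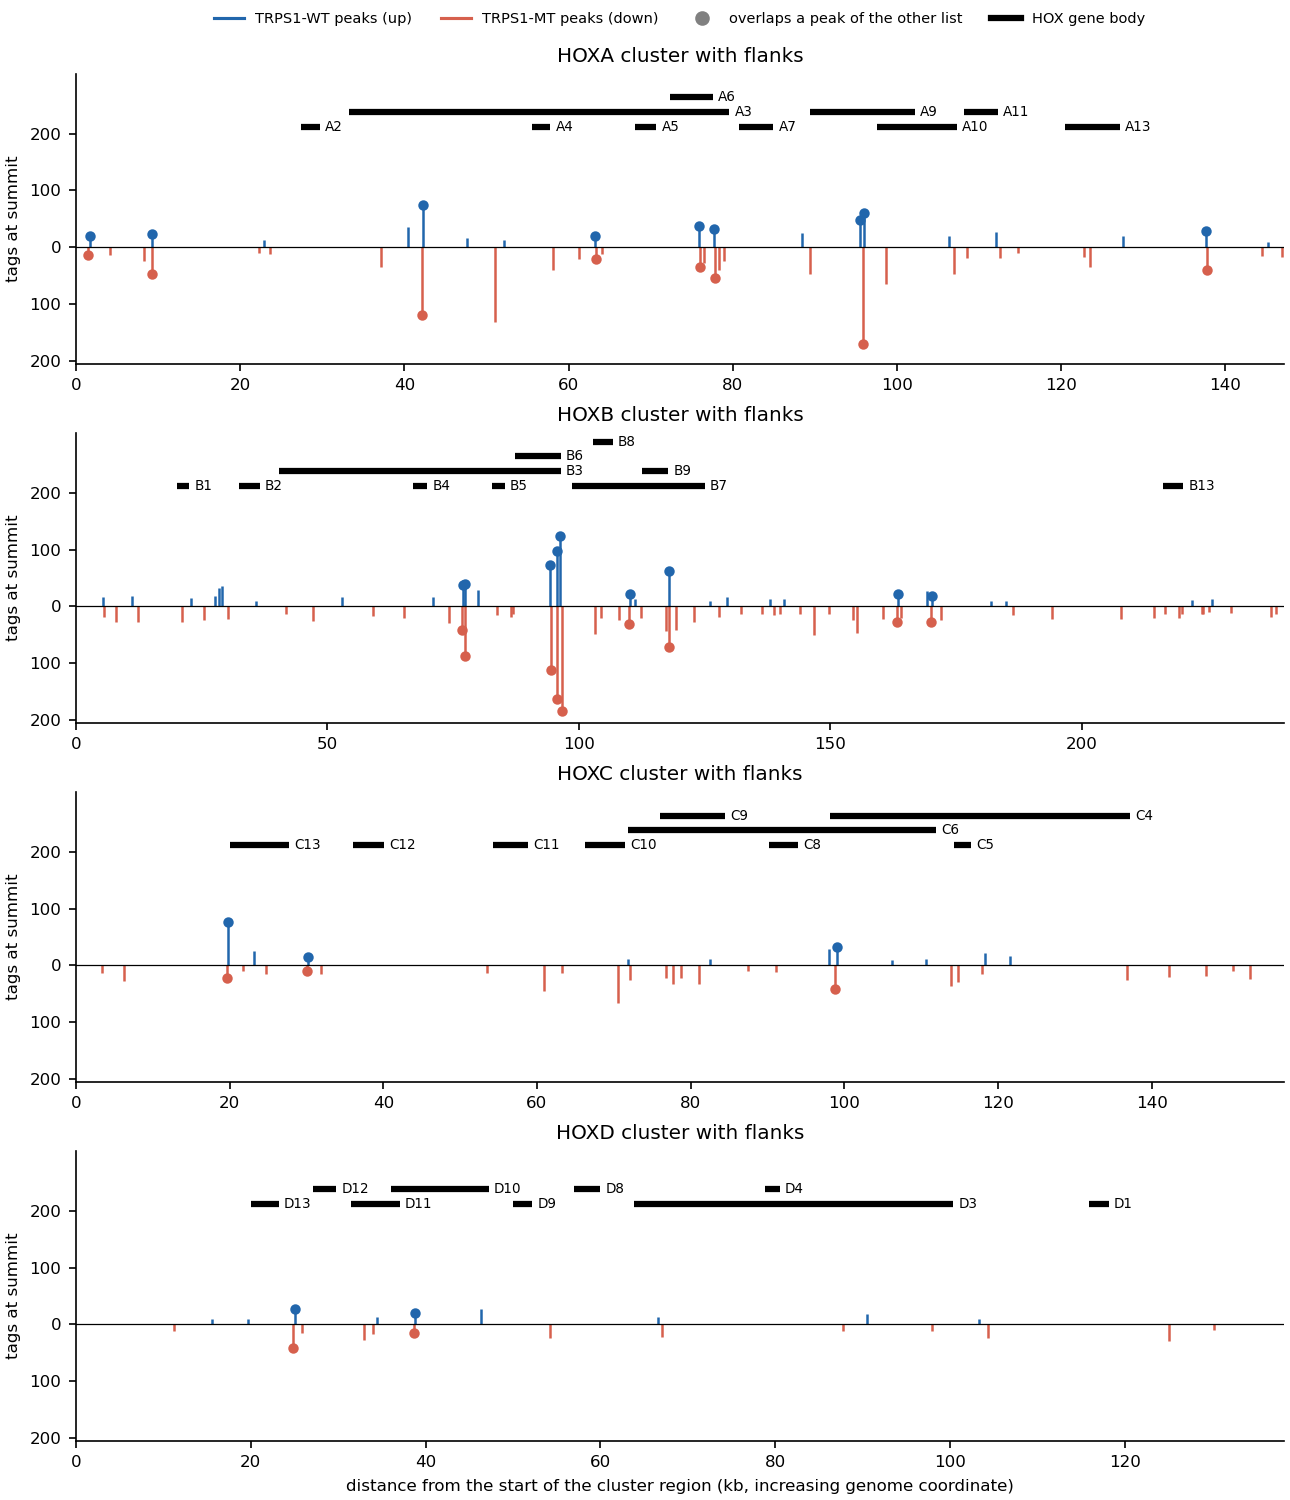
Tags at the summit (y axis) of every peak in the 4 HOX clusters with their flanks, against the distance from the start of the region (x axis, kb), with TRPS1-WT peaks upwards in blue and TRPS1-MT peaks downwards in red; dots mark peaks that overlap the other list, and black bars are the bodies of the HOX genes shown, labelled without the letters HOX. The tallest peaks of both lists stand together at HOXB3 and HOXB6, with up to 123 and 185 tags, and HOXD has no peak above 42 tags.

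Outside HOX promoters, the 5 TRPS1-WT peaks with the highest −log10 p were the HOXB6 intron site with 72 tags, a peak 5609 bp downstream of the HOXB2 TSS with 36 tags, a peak in an exon of HOXD10 at chr2:176983710-176983905 with 28, one between genes beyond HOXA13 at chr7:27249966-27250370 with 28, and one at −2001 bp from the HOXD12 TSS at chr2:176962385-176962659 with 28. Peaks of 37 and 39 tags in a HOXB3 intron had more tags than 4 of these but a lower −log10 p. In TRPS1-MT the strongest, by −log10 p and by tags, was a peak of 131 tags (110 to 155) over a background of 11.2. The peak lay at chr7:27163170-27164455, in an exon of HOXA-AS2 and inside the annotated HOXA3 gene. It was the widest of these at 1286 bp and overlapped no TRPS1-WT peak, the nearest of which had 13 tags at chr7:27164561-27164728. The next by −log10 p were a HOXB3 intron peak at chr17:46662907-46663530 with 87 tags, a peak between genes in the flank of HOXA at chr7:27121755-27122080 with 48, and 2 peaks of 47 and 50 tags in introns of LINC02086, a non-coding gene in the gap between HOXB9 and HOXB13. The HOXB6 intron site, with 113 tags over a raised background, was second by tags but was not among the 5 highest by −log10 p. The HOXA-AS2 exon was thus the strongest HOX site found in 1 list alone.

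The highest local background of each cluster separated the clusters more sharply than peak counts did. Local background is the tag density that the caller took from the surroundings of each peak, and it is given as a multiple of the genome-wide floor. No control library is named, so the surroundings were assumed to be those of the same library. It reached 13 times the floor in TRPS1-WT and 17.8 times in TRPS1-MT at HOXB3 and HOXB6, a level met by 2.03% and 0.587% of all peaks. In HOXA it reached 7.23 and 9.28 at HOXA9, in HOXC 2.53 and 2.98, and in HOXD 1.22 and 1.46. In HOXD 77.8% of TRPS1-WT peaks and 69.2% of TRPS1-MT peaks sat at the floor, beside 54.3% and 61.5% of all peaks, while in HOXA only 11.1% and 23.3% did. Raised background thus lay at the strong HOXB and HOXA sites in both lists. In the same library the surroundings hold the tags of the peak and its neighbours, so strong peaks close together raise this value by construction. Any other source was not tested.

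**Figure D4:**
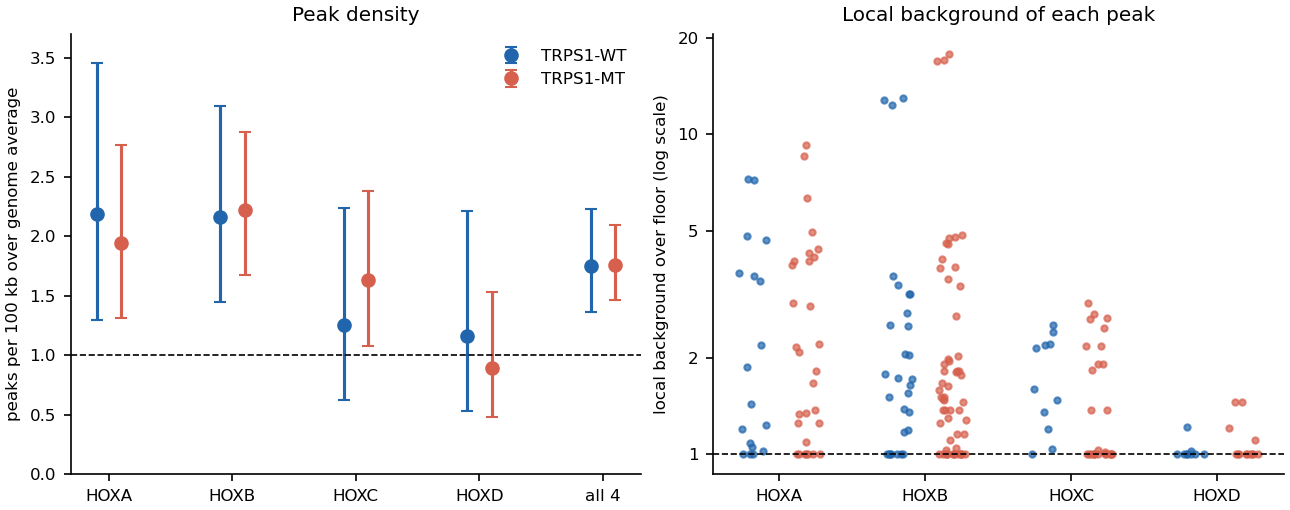
Left, peaks per 100 kb of each cluster region over the genome average (y axis), with exact 95% Poisson intervals and a dashed line at 1; right, local background of each peak over the genome-wide floor (y axis, log scale), 1 point per peak, spread sideways for sight. TRPS1-WT is blue and TRPS1-MT red, HOXB reaches 13 and 17.8 times the floor, and HOXD reaches 1.22 and 1.46.

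The last question was how far the lists marked the same places in the clusters. In TRPS1-WT 23 of 67 cluster peaks, or 34.3% (24.1 to 46.3), overlapped a TRPS1-MT peak, beside 30.4% of all TRPS1-WT peaks. In TRPS1-MT 22 of 126, or 17.5% (11.8 to 25), overlapped a TRPS1-WT peak, beside 15.8%. Both intervals thus held the share of the genome. By cluster the TRPS1-WT share was 50% in HOXA, 31.0% in HOXB, 27.3% in HOXC and 22.2% in HOXD, with intervals that overlapped throughout.

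The 24 overlapping pairs had 1.49 times as many TRPS1-MT as TRPS1-WT tags at the median (quartiles 1.11 and 1.69), beside 1.33 (0.926 and 1.93) over all 53500 pairs of the genome. The ratio of the floors was 1.60. The narrowest peaks were 168 bp wide in TRPS1-WT and 280 bp in TRPS1-MT. The parts of library depth and of the length to which the caller extended each tag in these ratios were not tested. Of the 24 pairs 14 lay above the median of all pairs, 4 below its lower quartile and 5 above its upper quartile. The median of the HOX pairs thus lay between that of all pairs and the ratio of the floors. The highest ratios were those of HOXA9, described above, and the HOXB3 intron, where the TRPS1-MT peak of 87 tags met TRPS1-WT peaks of 37 and 39, with ratios of 2.35 and 2.23. The lowest was that of HOXC13, where the fold over local background was also lower in TRPS1-MT, at 8.31 against 21.3.

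The sequences under the peaks were examined for short motifs within 100 bp of the summit, on both strands. A GATA motif, the class TRPS1 binds, was present at 19 of 67 HOX cluster peaks in TRPS1-WT, or 28.4% (19.0 to 40.1), beside 38.7% of all TRPS1-WT peaks. In TRPS1-MT it was present at 24 of 126, or 19.0% (13.1 to 26.8), beside 38.1%. Base composition moved with this, since the windows at HOX peaks had a median GC content of 51.2% and 53.0%, beside 43.8% and 43.3% over all peaks. Among windows of at least 50% GC, a GATA motif was present at 9 of 38 TRPS1-WT peaks, or 23.7% beside 17.7%, and at 9 of 73 TRPS1-MT peaks, or 12.3% beside 16.5%. Below 50% GC it was present at 34.5% beside 46.5% in TRPS1-WT and at 28.3% (18 to 41.6) beside 45.2% in TRPS1-MT. Of these 4 comparisons within a GC class, the share for all peaks lay outside the HOX interval only in the last.

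The SP-KLF motif, a GC-box bound by SP and KLF factors, was present at 8 of 67 peaks in TRPS1-WT, or 11.9% (6.2 to 21.8) beside 6.23%, and at 22 of 126 in TRPS1-MT, or 17.5% (11.8 to 25) beside 4.51%. At 50% GC or more the shares were 21.1% beside 19.3% in TRPS1-WT and 24.7% (16.2 to 35.6) beside 14.1% in TRPS1-MT. The AP-1 motif (TGACTCA or TGAGTCA) was present at 2 peaks in TRPS1-WT, or 2.99% beside 9.87%, and at 4 in TRPS1-MT, or 3.17% beside 5.74%, and 1 of the latter was the HOXA-AS2 exon peak. The motifs of HOX partners were near the genome's shares. The PBX-HOX motif (TGATTNA) was present at 11.9% beside 13.9% in TRPS1-WT and 8.73% beside 12.7% in TRPS1-MT, the MEIS motif (TGACAG) at 11.9% beside 13.8% and 11.9% beside 13.3%, and the CDX motif (TTTATNG) at 11.9% beside 11.1% and 10.3% beside 12.1%. The CTCF motif, of the factor that forms boundaries within HOX clusters, was present at 1 TRPS1-WT peak, the site printed above with 21 tags in TRPS1-WT and 31 in TRPS1-MT, or 1.49% beside 0.655%, and within 100 bp of no TRPS1-MT summit, beside 0.280%.

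Genes that work with or beside the HOX genes were counted in the same way, and their counts are to be read beside the 68.2% of all protein-coding genes with a peak in TRPS1-WT, the 77.2% in TRPS1-MT and the 50.7% with overlapping peaks. Members are named in order of −log10 p. The TALE cofactors had a promoter peak at 8 of 9 genes in each list and overlapping peaks at 6, among them PKNOX1 with 376 tags in TRPS1-WT and 501 in TRPS1-MT and PBX3 with 56 and 70. Of 21 Polycomb and Trithorax genes, which keep HOX clusters silent or active, 18 had a peak in TRPS1-WT, 18 in TRPS1-MT and 16 in both, and 14 had overlapping peaks. They were led by ASH2L, PHC2 and EED with 139, 155 and 74 tags in TRPS1-WT and by EED, MEN1 and KDM6B with 136, 111 and 167 in TRPS1-MT. The ParaHox genes, the evolutionary sisters of the HOX clusters, had a peak at 2 of 6 in TRPS1-WT and 1 of 6 in TRPS1-MT, with 50 and 28 tags at CDX2, the intestinal regulator of HOX genes. The retinoic acid and retinoid X receptors, through which retinoic acid acts on HOX genes, had a peak at 5 of 6 in TRPS1-WT and 6 of 6 in TRPS1-MT, led by RARA with 82 tags and RXRB with 142. In these 4 short lists the Wilson intervals of the share with a peak overlapped those of the HOX genes in both TRPS1-WT and TRPS1-MT. The share with overlapping peaks was 66.7% (35.4 to 87.9) for the TALE cofactors and 66.7% (45.4 to 82.8) for the Polycomb and Trithorax genes. These intervals held the share of all protein-coding genes and did not reach that of the HOX genes, 17.9% (9.0 to 32.7).

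The non-coding RNA genes within the clusters had a promoter peak at 12 of 18 in TRPS1-WT and 14 of 18 in TRPS1-MT, and 4 had overlapping peaks. Several shared a peak with a HOX gene, as HOXC13-AS did with HOXC13, HOXA-AS2 with HOXA3 and HOXA10-AS with HOXA9, so their tags are those given above. The 13 protein-coding neighbours of the clusters had a peak at 9 genes in TRPS1-WT and 12 in TRPS1-MT, and 8 had overlapping peaks, led by CBX5 beside HOXC with 165 and 320 tags, followed by TTLL6 with 117 and SKAP2 with 118 in TRPS1-WT and by HIBADH with 149 and SKAP2 with 155 in TRPS1-MT. The 78 other homeobox genes had a peak at 36, or 46.2%, and 45, or 57.7%, with overlapping peaks at 21, or 26.9% (18.3 to 37.7), and were led by OTX1 with 172 tags in TRPS1-WT and ISL2 with 250 in TRPS1-MT. The 45 forkhead genes, another family of developmental regulators, had one at 27, or 60.0%, and 32, or 71.1%, with overlapping peaks at 19, or 42.2% (29.0 to 56.7). The share with overlapping promoter peaks at HOX genes, 17.9% (9.0 to 32.7), had an interval that overlapped those of the other homeobox genes and the forkhead genes and did not reach that of all protein-coding genes.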

How the data were processed

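The series holds 2 Flag CUT&Tag libraries of HCT116 cells, 1 of TRPS1-WT and 1 of TRPS1-MT, and the authors deposited 1 peak list for each. By the study's methods, reads were filtered and aligned with Bowtie 0.12.8, MACS found the peaks of each library and HOMER assigned them to genes. The deposited lists give per peak a fold (a ratio of summit pileup to local background), −log10 p-value and −log10 q-value, a score (10 times −log10 q) and the distance from peak start to summit. The labels name hg19 and hg38 and the methods hg19, and 0 peaks passed a GRCh37 chromosome end, so GRCh37 with GENCODE release 44 was used.

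The methods name a MACS release before MACS2 while the lists have the MACS2 layout, so the recovery of tags assumes the MACS2 Poisson model. It met −log10 p to within 0.01 for all but 3 TRPS1-WT and 2 TRPS1-MT peaks, and was tested on simulated data. Read totals are not given in the sources used here, and the tags at a summit set the precision. Python 3.11.15, pandas 2.3.3, scipy 1.17.1 and pysam 0.24.0 were used. Peaks on other sequences, 105 and 142, were left out. No test was made, since each condition has 1 library; shares have Wilson and counts exact Poisson 95% intervals, and ratios of tags exact binomial intervals. Protein-coding genes without a canonical transcript were left out. Named genes were, per cluster and list, the 3 with the strongest promoter peak, ranked on −log10 p, every gene with a peak in 1 list or none, the 5 strongest peaks per list outside HOX promoters, and the strongest members of other lists. The members, lists and tests were chosen with earlier results of these data known. Some genes and sequences counted here are not reported by name.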

Additional observations from a re-analysis of the deposited data

How the results depend on the processing

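No paired analysis was possible because each condition has 1 library. For the calls of single HOX genes, 410 of 468 alternatives left the presence of a promoter peak as it was. Most settings only narrowed the promoter or removed peaks, so a gene without a peak could not change there. With the 173304 strongest peaks no TRPS1-WT call could change. From the 22 TRPS1-WT and 25 TRPS1-MT calls, 16 were lost with the canonical TSS alone and 16 within 500 bp of a TSS. A further 8 were lost with the strongest peaks and 4 within 1 kb, each setting taken alone. Of the 103 alternatives of the other results, 82 kept the count within 1.5 times or the value within its counting interval. The rest are given here, apart from the shares of other motifs in narrower windows, and their causes were not tested. Within 500 bp of a TSS, 15 HOX genes had a TRPS1-MT peak and 8 a peak in both lists, beside 62.2% and 49.1% of all genes. With the canonical TSS alone, 13 had a TRPS1-WT peak, 8 one in both lists and 4 overlapping peaks. With −log10 p of at least 10, 11 had a peak in both lists, and the density ratio of the clusters in TRPS1-WT rose to 2.24 and that of HOXA to 3.61. With the 173304 strongest peaks of each list, 26.4% of TRPS1-MT cluster peaks were shared, beside 25% of all peaks. On the scale of fold over local background, the median ratio of shared pairs was 0.853, below 1, where that of tags was 1.49, and that of all pairs was 0.920. Within 50 bp of the summit, as a narrower window must give, a GATA motif was found at 14.9% of TRPS1-WT and 10.3% of TRPS1-MT cluster peaks, beside 22% and 21.3% of all peaks. Peaks with few tags limit the promoter calls: 12 were lost with −log10 p of at least 10.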
